A study of Mus musculus with 2 samples.

Results

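Clcn1, Scn4a, Kcnj2, Atp1b1 and Atp1b2 encode 3 ion channels and 2 subunits of the sodium pump that set the electrical state of the muscle fibre membrane, the sarcolemma. They were taken by gene name from the transcript tables of both libraries, where they made up 5 of the 15631 annotated genes with reads. All transcript models listed under each name were kept, and their reads were summed per gene and per model. The rule itself uses gene names and no measured value, although it was written with earlier results of these data known.

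The series held 1 group: gastrocnemius, a calf muscle, of male B6CASTF1/J mice aged 10 days, an F1 hybrid of C57BL/6J and CAST/EiJ, with no treatment and no control. Total RNA, 2 micrograms a library, was sequenced as long reads in 2 libraries that the labels number as biological replicates and tie to separate biosamples of 1 donor identifier. Replicate 1 held 1145490 mouse reads and replicate 2 held 941841, over 14452 and 13740 annotated genes. Alleles of the 2 parental strains were not separated in the deposited counts.

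Excitability of a skeletal muscle fibre rests on a balance of currents. The voltage-gated sodium channel Nav1.4, encoded by Scn4a, carries the upstroke of the action potential. The chloride channel ClC-1, encoded by Clcn1, gives most of the resting membrane conductance and damps repeated firing, and loss of it causes myotonia. Kir2.1, encoded by Kcnj2, is an inward rectifier that holds the resting potential near that of potassium. The sodium pump restores the sodium and potassium gradients, and its beta subunits, which include those encoded by Atp1b1 and Atp1b2, are needed for folding and membrane delivery of the catalytic alpha subunit.

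The level of a gene is its number of reads for every 1000000 mouse reads (CPM). A long read stands for 1 cDNA molecule, so CPM was not divided by transcript length, although long transcripts can be lost or shortened before they are read. Intervals in brackets are exact 95% intervals that cover counting error only, and a gene without reads could still have up to 3 reads by the limit used here, or 2.62 CPM in replicate 1 and 3.19 CPM in replicate 2. Tests compared the 2 libraries with each other, not conditions, and their p-values measure counting error. The chi-square between the libraries averaged 5.99 per gene over 7516 genes, where counting error alone gives about 1, so the libraries differed by more than that error. The protocol documents named in the labels are pipeline v3.1 for replicate 1 and v3.0 for replicate 2, and document version and biosample cannot be told apart. In bulk tissue, fewer cells of a type and less RNA per cell cannot be told apart either.

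The tissue label was checked against marker genes. All 8 skeletal muscle fibre markers had reads in both libraries, with summed levels of 258093 and 251350 CPM. Of 5 neuron markers, Snap25, Rbfox3, Syt1 and Nefl were at 0 in both libraries, and the list summed to 0.873 and 0 CPM. All 7 markers of Schwann cells and nerve had reads, with sums of 1763 and 1322 CPM. Fibroblast markers summed to 9657 and 5894 CPM, and erythroid markers to 409 and 853 CPM. The part of these other cells in the members' levels was not tested.

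Atp1b2 had the highest level of the 5 genes, followed by Atp1b1, Scn4a, Clcn1 and Kcnj2. Atp1b2 had 437 reads in replicate 1 and 381 in replicate 2, which is 382 CPM (347 to 419) and 405 CPM (365 to 447), with a mean of 393 ± 16.3 CPM (SD, n = 2) and rank 247 among the annotated genes. Atp1b1 had 74 and 60 reads, which is 64.6 CPM (50.7 to 81.1) and 63.7 CPM (48.6 to 82.0). Scn4a had 58 and 24 reads, which is 50.6 CPM (38.5 to 65.5) and 25.5 CPM (16.3 to 37.9). Replicate 1 was thus the higher library for Scn4a, while the libraries lay close together for both pump genes.

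Clcn1 had 35 and 11 reads, which is 30.6 CPM (21.3 to 42.5) in replicate 1 and 11.7 CPM (5.83 to 20.9) in replicate 2. Kcnj2 had 10 reads in replicate 1, which is 8.73 CPM (4.19 to 16.1), and 0 in replicate 2, which allows up to 3.19 CPM. All 3 channel genes were therefore higher in replicate 1. In the order of levels, the ranges over the libraries of Scn4a and Clcn1 overlapped, and so did their counting intervals within each library. Those of Atp1b1 and Scn4a overlapped in replicate 1 but not in replicate 2. The intervals of Atp1b2 and Atp1b1, and those of Clcn1 and Kcnj2, were apart in both libraries.

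**Figure D1:**
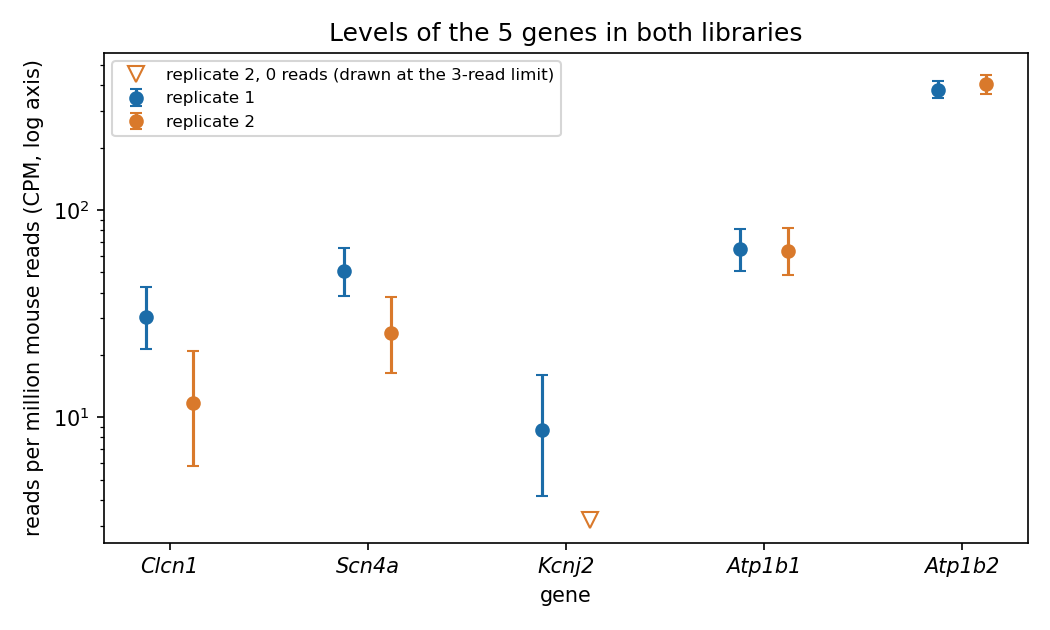
Level of each gene (CPM, log axis) in replicate 1 and replicate 2; bars are exact 95% intervals of the counts, and the open triangle marks 0 reads, drawn at the 3-read limit. The pump genes Atp1b1 and Atp1b2 sit at nearly the same level in both libraries, while Clcn1, Scn4a and Kcnj2 are lower in replicate 2.

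Of 7516 genes with 20 or more reads, the exact conditional binomial test called 207 that differed by 2-fold or more with an adjusted p under 0.05 (percent called 2.75), 144 higher in replicate 1 and 63 in replicate 2. Among the members, 4 genes reached 20 reads and 1 of them, Clcn1, was called. With so few members, that count is not read against the background. Clcn1 was 2.62-fold higher in replicate 1 (log2 1.39, Benjamini-Hochberg adjusted p = 0.0486 by the exact binomial test). Over the 8 alternative settings that tested Clcn1, its adjusted p ran from 0.024 to 0.124 and 4 of them called it.

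Scn4a was 1.99-fold higher in replicate 1 (log2 0.99, adjusted p = 0.0437 by the same exact test) and lay just under the 2-fold limit. Over its 7 alternatives the adjusted p ran from 2.41e-05 to 0.761 and 2 called it. Without reads of the genomic class, which for Scn4a are nearly all in replicate 2, it was 4.26-fold higher in replicate 1 (log2 2.09, adjusted p = 2.41e-05). Atp1b1 differed by a log2 ratio of 0.02 (adjusted p = 1) and Atp1b2 by a log2 ratio of -0.08 (adjusted p = 0.742). Kcnj2 held too few reads for the main test. With a read minimum of 5 and with none it was tested and not called (adjusted p = 0.0516 and 0.0715 by the exact binomial test). Its level in replicate 1 was 2.74 times the 3-read limit of replicate 2. That ratio leaves out the counting error of both libraries.

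Transcript length moved with the difference between the libraries. Over all tested genes, the median log2 ratio of replicate 1 to replicate 2 was -0.31 where the longest annotated transcript was under 1000 nt, and 0.38 where it was 6000 nt or more. Scn4a, with a longest transcript of 6598 nt, fell in the latter bin, in which the pooled reads gave a log2 ratio of 0.66. Measured against the pooled ratio of its own length bin, Scn4a differed by a log2 ratio of 0.33 (adjusted p = 0.761 by the exact binomial test). Clcn1, with a longest transcript of 3545 nt, lay in a bin with a median log2 ratio of 0.04. Against the pooled ratio of that bin it kept a log2 ratio of 1.22 and was not called (adjusted p = 0.099). Kcnj2 lay in the bin from 4000 to 6000 nt, with a median of 0.20, and Atp1b1 in that from 2000 to 3000 nt, with a median of -0.07.

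**Figure D2:**
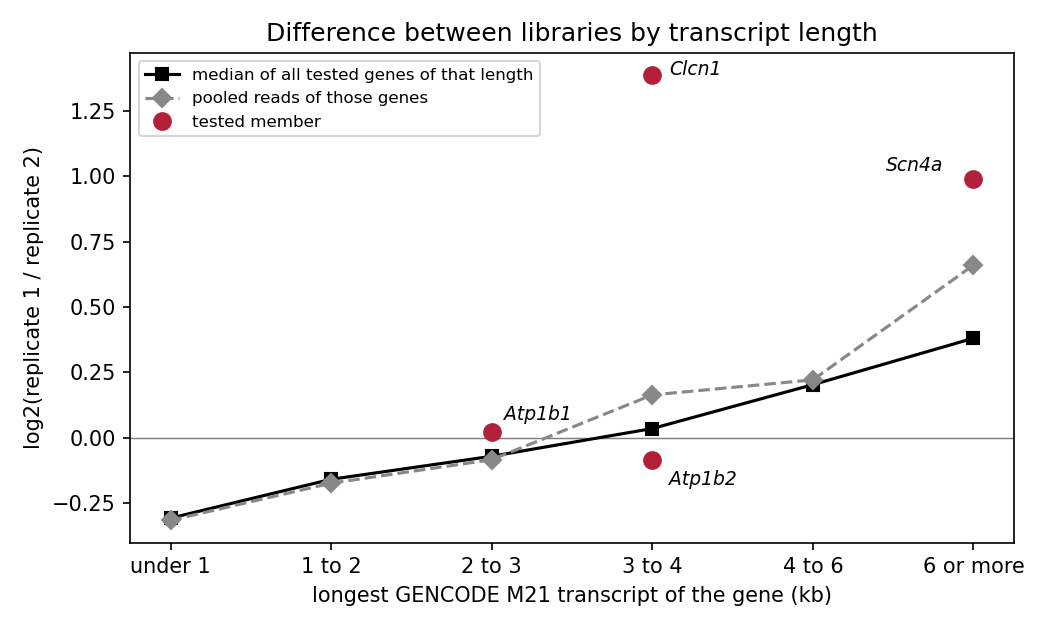
Log2 ratio of replicate 1 to replicate 2 against the length of the longest annotated transcript (kb); squares are medians of all tested genes in a bin, diamonds the ratio of their pooled reads, and red points the tested members. Medians run from -0.31 to 0.38 from the shortest to the longest bin, Scn4a at 0.99 lies 0.33 above the pooled value of its bin, and Clcn1 at 1.39 lies 1.22 above that of its own.

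Clcn1 (ENSMUSG00000029862.15, chr6:42286685-42315756, plus strand, mm10) was read mostly as its reference transcript. The protein-coding transcript Clcn1-201, with 23 exons and 3545 nt, took 21 of 35 reads in replicate 1 and 6 of 11 in replicate 2, a mean share of 57.3% ± 3.86 (SD, n = 2). These same reads were the ones that carried its complete coding sequence of 994 codons with no other splicing, which is 60.0% (42.1 to 76.1) and 54.5% (23.4 to 83.3) of Clcn1 reads. With its single-exon reads counted as 1, Clcn1 had 16 distinct structures, of which 2 were found in both libraries, namely Clcn1-201 and the single-exon reads.

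A single internal exon of Clcn1 varied by the rule used here, which asked for 5 or more spanning reads and inclusion of 5% to 95%. It is an annotated 79-nt exon at chr6:42293444-42293522, known as exon 7a, between the 78-nt exon before it and the 79-nt exon after it. Skipping of exon 7a is known to be needed for a full-length ClC-1, and its retention is known from myotonic dystrophy, where muscleblind splicing factors are sequestered. The exons are shown in order because the insertion shifts the reading frame, and the capitals mark the stop codon that comes into frame when exon 7a is spliced into Clcn1-201 (GENCODE M21 transcript sequences, plus strand, 5′ to 3′).
Exon before, chr6:42292941-42293018: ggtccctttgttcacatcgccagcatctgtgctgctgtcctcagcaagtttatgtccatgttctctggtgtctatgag
Exon 7a, chr6:42293444-42293522: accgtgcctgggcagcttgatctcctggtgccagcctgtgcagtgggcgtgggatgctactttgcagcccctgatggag
Exon after, chr6:42294078-42294156: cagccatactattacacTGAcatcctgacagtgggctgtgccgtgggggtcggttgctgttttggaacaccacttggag

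With exon 7a the frame from the annotated start codon of Clcn1-201 runs for 290 codons before that stop, at base 18 of the exon after it, against 994 codons without it. Exon 7a and the exon after it have the same length and hold the same base at 42 of 79 positions when aligned without gaps. Of the last 50 positions, 33 are identical. Exon 7a has a GC content of 63.3% and the exon after it 54.4%.

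Exon 7a was retained in 3 of 31 spanning reads in replicate 1 (9.68%, 2.04 to 25.8) and in 1 of 9 in replicate 2 (11.1%, 0.281 to 48.2), or 4 of 40 over both (10.0%, 2.79 to 23.7). The 2 libraries gave nearly the same share, with wide intervals. There were too few spanning reads for the between-library test, which covered 1712 exons of all genes and called 3 (percent called 0.175), none of them in a member. Among the 4 reads that held it, 1 matched Clcn1-208 and 1 matched Clcn1-207, both annotated as targets of nonsense-mediated decay, and 2 came from an unannotated model of 23 exons that also kept the intron between the second and the third exon of Clcn1-201.

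Of 22 annotated internal exons with 5 or more spanning reads, 20 were in every spanning read. Reads that used another splice site of an exon, or kept an intron beside it, do not count as spanning it. The exon at chr6:42294078-42294156 was thus in 38 of 38 spanning reads, although 1 read each started it at 42294075 and 42294081. Just outside the inclusion limit, and named after its value was seen, was a 105-nt exon at chr6:42313054-42313158 near the 3′ end, which 40 of 42 spanning reads held (95.2%, 83.8 to 99.4). Of 6 introns of Clcn1 that are absent from GENCODE M21, 5 had a single read over both libraries and none was in both. Fam131b, which overlaps the 3′ end of Clcn1 by 445 nt on the other strand, had 0 reads in both libraries.

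**Figure D3:**
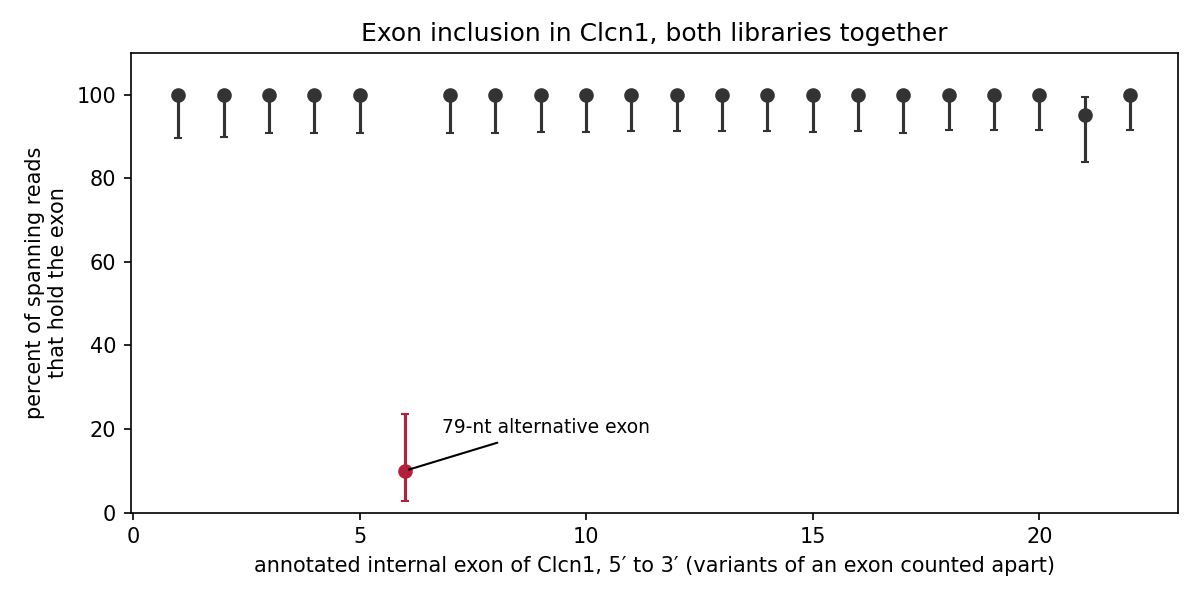
Share of spanning reads that hold each annotated internal exon of Clcn1 (percent, both libraries together), in order from 5′ to 3′; bars are exact 95% intervals. The 79-nt exon 7a stands at 10.0%, and 20 of the 22 exons are at 100%, where reads with another splice site of an exon are not counted for it.

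Scn4a (ENSMUSG00000001027.7, chr11:106318592-106353288, minus strand, mm10) was read to its 5′ end from an exon that GENCODE M21 does not annotate for it. This exon, of 176 nt at chr11:106365475-106365650, lies 16086 nt upstream of the start of Scn4a-201, the annotated 24-exon coding transcript. An intron of 15683 nt, at chr11:106349792-106365474 and absent from M21, joins it to a 675-nt exon, which extends the annotated 273-nt first exon of Scn4a-201 by 402 nt. The annotated coding sequence starts at the first base of Scn4a-201, inside that extended exon, and the reading frame upstream of it was not examined.

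Upstream-exon reads numbered 19 in replicate 1 and 2 in replicate 2. Of reads that contained the first intron of Scn4a-201, 19 of 21 (90.5%, 69.6 to 98.8) and 2 of 2 came from the upstream exon. In replicate 2, 1 of the 2 held an extra 95-nt exon at chr11:106355122-106355216. The remaining 2 reads of replicate 1 were those of Scn4a-201 itself, which had 0 reads in replicate 2, and the other annotated transcript, Scn4a-202, had 0 in both. The 300-bp RefSeq promoter window of Scn4a (GRCm38.p6), at chr11:106349341-106349640, lies inside the 675-nt exon. Model ends are the deposited ones and need not be each read's own end.

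The upstream exon overlaps the first exon of Prr29, at chr11:106365472-106365650 on the plus strand, which had 4 reads in each library. Because that first exon starts 3 bases inside the Scn4a intron, the junction of exon and intron can be read from the M21 sequence of Prr29. It is shown as the minus strand, chr11:106365472-106365494, 5′ to 3′, with the 3 intron bases in capitals, the first 2 of which are the GT of a splice donor on the strand of Scn4a.
Scn4a upstream exon donor: ttctctgcttctggccaacaGTG

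At the 3′ end, 50 of 58 and 18 of 24 Scn4a reads belonged to models that ran beyond the annotated end at position 106318592, and the farthest ended at 106317542. Single-exon reads made up 20 of 58 (34.5%, 22.5 to 48.1) in replicate 1 and 13 of 24 (54.2%, 32.8 to 74.5) in replicate 2. The 20 reads of replicate 1 share 1 model of 3378 nt that spans the last exon, deposited as an incomplete match. In replicate 2, 12 reads share a 1051-nt model at the 3′ end and 1 a model of 852 nt, all deposited as genomic. The 1051-nt model, at chr11:106317542-106318592, overlaps the annotated last exon by 1 nt, whereas the model of replicate 1 covers all 2328 nt of that exon. One end of the 1051-nt model is the annotated end of the gene itself. Model ends need not be read ends, so how far its 12 reads lie beyond the gene was not tested.

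Completeness fell along Scn4a in both libraries. The last intron was spliced out in 35 of 58 reads (60.3%) in replicate 1 and in 11 of 24 (45.8%) in replicate 2. At the first intron of Scn4a-201 these had fallen to 21 reads (36.2%) and 2 reads (8.33%). The complete coding sequence of 1841 codons was carried by 16 reads (27.6%, 16.7 to 40.9) in replicate 1 and 2 reads (8.33%, 1.03 to 27.0) in replicate 2. No internal exon of Scn4a varied by the inclusion rule, over 22 annotated internal exons. Between libraries the share of incomplete-match reads was 63.8% and 37.5% (adjusted p = 0.598 by Fisher's exact test). With genomic reads added, a comparison chosen after seeing the data, it was 65.5% and 91.7%, in the other direction (adjusted p = 0.417). Over all genes the test of incomplete-match reads alone called 59 of 4697 (percent called 1.26), with 0 of 3 tested members. With genomic reads added it called 37 of 4697, again with 0 of 3 tested members.

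**Figure D4:**
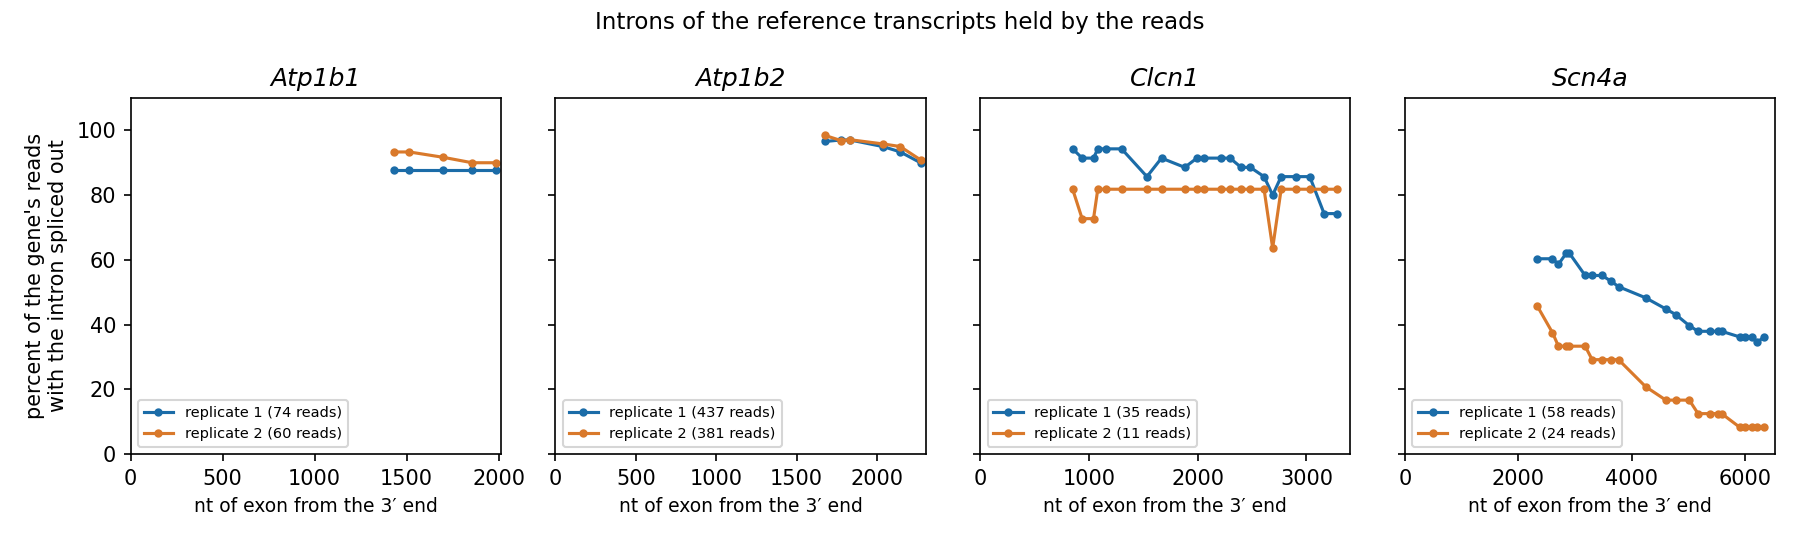
Percent of each gene's reads in which a given intron of the reference transcript was spliced out, against the exonic distance of that intron from the 3′ end (nt), for both libraries. Reads of Atp1b1, Atp1b2 and Clcn1 hold most introns to the 5′ end, whereas in Scn4a the share falls from 60.3% to 36.2% in replicate 1 and from 45.8% to 8.33% in replicate 2.

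Kcnj2 (ENSMUSG00000041695.2, chr11:111066164-111076821, plus strand, mm10) has 2 exons, and its coding sequence of 428 codons lies wholly in the last. All 10 reads came from replicate 1. Kcnj2-201, of 5444 nt, took 4 reads, each of which spanned both exons and the complete coding sequence. The other 6 reads formed a single-exon model of 3880 nt, at chr11:111072942-111076821, which starts close to the stop codon and otherwise covers the 3′ untranslated part of the last exon.

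Among inward rectifier pores, Kcnj2 was a minor gene at the read level. It took 6.99% (3.40 to 12.5) of 143 such reads in replicate 1 and 0 of 104 in replicate 2, which allows up to 3.48% by the exact interval. Kcnj8, the pore of the vascular type of ATP-sensitive potassium channel, had 55 and 53 reads and took 44.7% ± 8.84 of the reads (SD, n = 2). Kcnj11, the pore of the ATP-sensitive channel of muscle fibres, had 53 and 22 reads and took 29.1% ± 11.3. Kcnj12, which encodes Kir2.2, a close relative of Kir2.1, had 24 and 28 reads, so it was the lower in replicate 1 where Kcnj2 was the higher. Neither Kcnj12 (adjusted p = 0.545) nor Kcnj11 (adjusted p = 0.0693) was called by the exact binomial test.

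Atp1b1 (ENSMUSG00000026576.12, chr1:164437109-164458355, minus strand, mm10) was read almost wholly as a single transcript. Atp1b1-201, with 6 exons and 2580 nt, took 63 of 74 reads in replicate 1 and 54 of 60 in replicate 2, a mean share of 87.6% ± 3.44 (SD, n = 2). Those reads were also the ones with the complete coding sequence of 304 codons. Single-exon reads at the 3′ end numbered 7 and 4, and the 3′ end overlaps that of Nme7 by 617 nt on the other strand, a gene with 3 and 5 reads. The part of Nme7 in these single-exon reads was not tested. All 4 internal exons were constant by the inclusion rule.

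Atp1b2 (ENSMUSG00000041329.13, chr11:69599736-69605942, minus strand, mm10) had a leading transcript with almost the same share in both libraries. Atp1b2-201, with 7 exons and 2842 nt, took 388 of 437 reads (88.8%) and 338 of 381 (88.7%), a mean of 88.8% ± 0.0518 (SD, n = 2). The complete coding sequence of 290 codons was carried by 389 reads (89.0%, 85.7 to 91.8) and 339 reads (89.0%, 85.4 to 91.9). The next model, Atp1b2-204, annotated as a processed transcript, had 12 reads in each library, and single-exon 3′ reads numbered 12 and 6.

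Atp1b2 had 18 distinct structures, Atp1b2-201 and Atp1b2-204 among them, with 7 in both libraries. Of 9 introns absent from M21, 2 were in both libraries. The intron chr11:69603554-69604108, which joins a different first exon, had 1 and 3 reads. The intron chr11:69599941-69601157, which removes part of the last exon, had 1 read in each. The intron with the most reads, chr11:69601622-69602424, had 0 in replicate 1 and 5 in replicate 2. Over all genes the transcript share test called 59 of 9691 models (percent called 0.609), and of 6 tested models of the members it called 0, with 0 at an unadjusted p under 0.05 by Fisher's exact test.

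**Figure D5:**
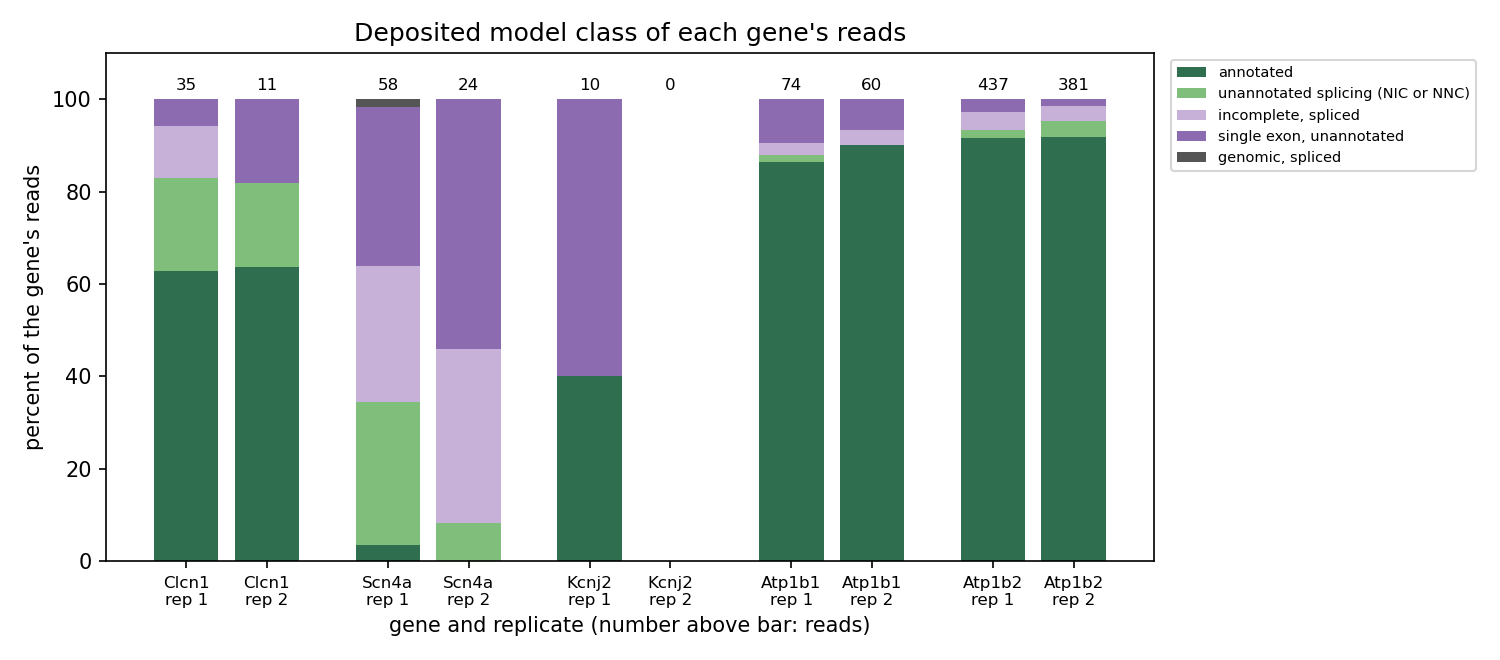
Percent of each gene's reads by deposited model class in each library, with the number of reads above each bar. Annotated transcripts hold 86.5% to 91.9% of the reads of Atp1b1 and Atp1b2, and 3.45% and 0% of those of Scn4a, where unannotated splicing includes the reads from the upstream exon.

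Among the genes named as beta subunits of the pump, Atp1b2 and Atp1b4 had the most reads. Atp1b2 took 47.8% (44.5 to 51.1) of 915 beta reads in replicate 1 and 50.5% (46.9 to 54.2) of 754 in replicate 2, a mean of 49.2% ± 1.96 (SD, n = 2). Atp1b4, a muscle-enriched relative that in placental mammals is known as a nuclear membrane protein and not a pump subunit, took 36.6% ± 2.46. Its 351 and 263 reads are part of the 915 and 754, so the shares of the other genes are higher without it. Atp1b1 took 8.09% (6.40 to 10.0) and 7.96% (6.13 to 10.1), a mean of 8.02% ± 0.0918, and Atp1b3 6.21% ± 0.593. The order was the same in both libraries, and the intervals of Atp1b1 and Atp1b3 overlapped. Counted against Atp1b2 alone, Atp1b1 made up 14.5% and 13.6% of the reads of the pair.

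Fxyd1, which encodes phospholemman, a regulator of the pump, had 510 and 689 CPM. Of 15 genes listed as pump subunits and FXYD regulators, 12 had reads, 8 were tested and 0 were called in either direction, with a median log2 ratio of 0.08 against 0.01 over all tested genes. Fxyd1 reached an adjusted p under 0.05 without a 2-fold difference, and in replicate 1 stood at 0.740 times its replicate 2 level (adjusted p = 6.96e-06 by the exact binomial test). Its longest transcript is 668 nt, in the shortest of the length bins.

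Scn4a was nearly the sole pore of voltage-gated sodium channels, with 58 of 60 such reads in replicate 1 (96.7%, 88.5 to 99.6) and 24 of 25 in replicate 2 (96.0%, 79.7 to 99.9). The accessory subunit Scn4b had 26.2 and 14.9 CPM. Of 14 sodium channel genes, 7 had reads, 3 were tested and 0 were called, with a median log2 ratio of 0.82.

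Clcn1 shared the CLC family with intracellular transporters. It took 22.4% (16.2 to 29.8) of 156 CLC reads in replicate 1 and 12.1% (6.19 to 20.6) of 91 in replicate 2. Clcn4, an endosomal exchanger, took a larger share in both, with a mean of 40.7% ± 7.71 (SD, n = 2), and Clcn3 and Clcn7 took 15.2% ± 2.91 and 15.0% ± 2.14. Of 11 genes in that list, which includes the ClC-7 partner Ostm1, 9 had reads and 5 were tested. Clcn1 was the 1 called gene, higher in replicate 1, and the list median was 0.20.

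Of 17 inward rectifiers and sulfonylurea receptors, 7 had reads, 4 were tested and 1 was called. That gene was Abcc9, the SUR2 subunit of ATP-sensitive potassium channels, with 65.5 and 28.7 CPM, 2.28-fold higher in replicate 1 (adjusted p = 0.0031 by the exact binomial test). Its longest transcript is 7499 nt. The list median log2 ratio was 0.38.

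The genes nearest to each member in level over the 2 libraries were found by distance in log2(CPM + 1). They were Fbxo17 and Furin for Clcn1, at distances of 0.08 each, and Rusc2 and Sptbn1 for Scn4a, at 0 and 0.02. Ttc9 and Cmpk1 were nearest to Atp1b1, at 0 and 0.02, and Slc25a12 and Ube2d3 to Atp1b2, at 0.02 and 0.04. Tbx4 and Pter had the same counts as Kcnj2, with 10 reads in replicate 1 and 0 in replicate 2. With 2 libraries, such likeness is a match of 2 values and no more.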

How the data were processed

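Long reads of total RNA were measured in 2 libraries of 1 group. The deposited values are raw read counts per transcript model, with no normalization; per the file headers and the notes deposited with each library, reads were aligned to mm10 and transcripts counted against GENCODE M21, and the annotations carry TALON attributes. The sources used here do not name the aligner or its version. Model classes, exons and gene names are those of the authors.

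Gene counts were sums over all models, and CPM used mouse reads, with 26923 and 15688 spike-in reads left out. A two-sided exact conditional binomial test was applied to genes whose reads summed to 20 or more. Fisher's exact test was used for transcript shares, exon inclusion and incomplete shares, where each library had 20 or more reads of the gene or spanning the exon. All p-values carry the Benjamini-Hochberg adjustment over every feature tested, with calls at an adjusted p under 0.05 and 2-fold, or 10 points for shares. Intervals are Clopper-Pearson for shares and also for levels, taken as gene reads out of all mouse reads. Spanning reads of an exon have introns on both sides of it, and either hold it with both its splice sites or skip it by an intron that covers it. Reads with a shifted splice site or a kept intron beside the exon are not counted for it. Models were matched between libraries by transcript name or intron chain. Exon sequences came from the GENCODE M21 transcripts.

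Named were the 5 members, up to 6 genes at 10 CPM or more of each pathway list, the 2 nearest genes of each member, and models with a share of 5% or more. Some items that this rule takes are left out of the text. The members and lists were chosen with earlier results of these data known. Alternatives changed scaling (edgeR 4.0.16 TMM, DESeq2 1.42.0 size factors), read minima, model classes, fold or point limits, the length null and the library. Tests were run in Python 3.11.15 with scipy 1.17.1 and checked on simulated counts. Those counts held counting error only, so the check does not cover the larger differences between these libraries.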

Additional observations from a re-analysis of the deposited data

Results flagged for a closer look

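An unannotated locus touching Atp1b2 had reads that no comparison above used. In replicate 2, 5 single-exon reads, which the authors class as intergenic, lie at chr11:69605942-69607125 on the minus strand, that of the gene, upstream of it and ending at its annotated 5′ end. They were taken up because 5 exceeds the 3-read limit, and replicate 1 had none there.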

How the results depend on the processing

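The main gene test called 1 member, Clcn1. It called 0 members with a read minimum of 5 (187 of 11282 genes called in all), with none (157 of 15631), with annotated transcripts only (170 of 5908) and with a null fitted per length bin (165 of 7516). It also called 0 with a minimum of 100 reads (59 of 2666 genes), where Clcn1, Scn4a and Kcnj2 have too few reads to be tested. It called 2, Clcn1 and Scn4a, without the genomic class (223 genes) and at any fold (685 genes, against 207). Leaving out the genomic class removed single-exon Scn4a reads from replicate 2 alone, and the log2 ratio of Scn4a became 2.09. With annotated transcripts only, the mean level of Scn4a moved from 38.1 to 1.23 CPM, because its upstream-exon, incomplete and single-exon models are not annotated, and those of Atp1b1 and Atp1b2 from 64.2 to 77.7 and from 393 to 494 CPM. By single library, the level of Clcn1 ran from 11.7 to 30.6 CPM, of Scn4a from 25.5 to 50.6 and of Kcnj2 from 0 to 8.73. Added after seeing the data, exon 7a inclusion without incomplete models was 10.5%. TMM and DESeq2 scaling moved the log2 ratio of Clcn1 from 1.387 to 1.382 and 1.380, and that of Scn4a from 0.9906 to 0.9851 and 0.9835. No test between libraries could leave out a replicate, since each needs both. No paired analysis was possible because the series holds 1 group. The alternatives for transcript shares and incomplete shares called 0 members, and those for exon inclusion tested none. Depth limits Kcnj2, exon 7a and the 5′ end of Scn4a in replicate 2, which rest on few reads.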

Other observations

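Of 30 other potassium channel genes of muscle, 24 had reads, 6 were tested, 2 were called higher in replicate 1 and 0 in replicate 2, with a median log2 ratio of 0.56. Kcnc4, which encodes the Kv3.4 pore, led with 78.6 and 72.2 CPM (adjusted p = 0.883 by the exact binomial test).

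Of 10 ankyrins and channel anchors, all had reads, 8 were tested and 0 were called, with a median log2 ratio of 0.86. Ank1 was the highest, with 437 and 452 CPM. Of 12 ion exchangers and cotransporters of the sarcolemma, 10 had reads, 4 were tested and 0 were called. Slc12a4, a potassium chloride cotransporter, had 34.9 and 32.9 CPM, and Slc8a3, a sodium calcium exchanger, had 31.4 and 14.9 CPM (adjusted p = 0.12).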
